A study of Homo sapiens with 15 samples.

Results

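The JAK, STAT and SOCS genes were followed in HCT116 cells, a human colorectal cancer cell line, after treatment with thymoquinone (TQ), 5-fluorouracil (5-FU), a mixture of both (Combi) or SARB, a hybrid molecule in which TQ and 5-FU are joined through an ester. The set was taken by symbol and holds 9 of the 730 endogenous genes of the NanoString PanCancer Pathways panel: JAK1, JAK2, JAK3, STAT3, STAT4, SOCS1, SOCS2, SOCS3 and PIM1. Control cells were untreated, TQ cells received 40 µM TQ, 5-FU cells received 15 µM 5-FU, Combi cells received 35 µM TQ together with 35 µM 5-FU, and SARB cells received 35 µM SARB. Exposure lasted 24 h and every group had 3 samples, which the submitters described as biological replicates. The study asked how gene expression differed between treated and untreated cells and among the treatments. Since the panel was read on bulk RNA of 1 cell line, a smaller number of expressing cells and less RNA per cell cannot be told apart.

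Janus kinases (JAKs) sit on the cytoplasmic tails of cytokine receptors and are switched on when a cytokine draws the receptor chains together. They then phosphorylate STAT proteins, which pair up, enter the nucleus and activate target genes. Among these targets are the SOCS genes, whose products bind receptors and JAKs and shut the signal off, and PIM1, which encodes a serine/threonine kinase that favours survival. In intestinal epithelium and colorectal cancer the pathway is best known for interleukin 6 family cytokines acting through JAK1, JAK2 and STAT3. JAK3 and STAT4 are known mainly from lymphoid cells.

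In the NanoString assay a pair of probes captures each transcript and barcodes are counted one molecule at a time, without amplification. Each sample yielded 135017 to 607782 counts over the 730 endogenous genes. To correct for the amount of RNA, each sample's raw counts were divided by a factor from its 40 housekeeping genes (their geometric mean, 0.460 to 2.29 relative to that of all samples), and the quotient is called the scaled count. It compares samples but not genes, because probes differ in efficiency. Differences were tested in edgeR (quasi-likelihood), with p adjusted after Benjamini and Hochberg across the 730 genes, and a call required both p not above 0.05 and a change of 1.5-fold or more. All adjusted p below are from this edgeR fit unless another tool is named. All 4 treatments were compared with the same 3 control samples, so these comparisons are not independent of each other. Control replicate 1 ran on the same cartridge as all TQ, 5-FU and SARB samples, control replicates 2 and 3 shared a cartridge with Combi replicate 1, and Combi replicates 2 and 3 ran on a cartridge of their own. A cartridge block therefore leaves 1 control sample for TQ, 5-FU and SARB, and 1 Combi sample against 2 controls. Background was set in each sample at the mean of the 8 negative probes plus 2 SD, which was 6.23 to 26.4 counts. All but JAK3, that is 8 of the 9 genes, exceeded it in all 15 samples. As a check of the labelled cell type, 10 of 11 epithelial marker genes on the panel were above background in all 3 controls, against 2 of 12 haematopoietic markers, which were CD40 and MPO. Summed over the 12 haematopoietic genes, control samples had scaled counts of 315 to 397, TQ samples 203 to 339, 5-FU samples 252 to 319, Combi samples 329.5 to 407 and SARB samples 210.4 to 357. Summed over the 11 epithelial genes, control samples had 4688 to 6540, TQ samples 4000.2 to 4369, 5-FU samples 7999.8 to 8159, Combi samples 8139 to 8942 and SARB samples 6385 to 7019. The epithelial sum was thus higher than in every control in all 5-FU and Combi samples, lower in all TQ samples, and overlapped with control in SARB. The part of these sums in the results was not tested.

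The data show called rises of STAT3, SOCS1 and SOCS3 in several treatments. In TQ none of the 9 genes was called higher in edgeR with housekeeping scaling, but SOCS3 was called higher under TMM normalization, which centres the bulk of the panel (0.80 on the log2 scale), and in DESeq2 (0.83), and PIM1 in DESeq2 (0.62). SOCS1 rose 2.71-fold in 5-FU, 2.59-fold in Combi and 2.25-fold in SARB, and STAT3 rose 2.33-fold in 5-FU and 1.89-fold in SARB. JAK2, SOCS3 and STAT4 were called higher in Combi, and SOCS3 also in SARB. With cartridge as a block the JAK2 call stayed and those of SOCS3 in Combi (0.64) and SARB (0.44) and of STAT4 in Combi (1.03) were lost. STAT4 and JAK3 were called lower in TQ, neither under TMM nor with the cartridge block, and JAK3 did not exceed background in any control. JAK1, SOCS2 and PIM1 gave no call in the edgeR fit of all 15 samples with housekeeping scaling. In the comparison with control, 0 of the 9 genes were called higher and 2 lower in TQ, where 3.42% of all 730 genes were called higher and 21.6% lower, so that the share of lower calls among the 9 was close to that of the panel. In 5-FU 2 were called higher and 0 lower, against 10.1% higher and 10.1% lower over the panel. In Combi 4 were called higher and 0 lower, against 13.6% and 6.58%. In SARB 3 were called higher and 0 lower, against 8.63% and 20%. In 5-FU, Combi and SARB the higher calls thus made up a larger share of the 9 genes than of the panel. The panel also holds genes with low counts, so the 514 genes with a mean raw count of at least 20 were fitted alone. Higher calls among them were 76 in 5-FU, 100 in Combi and 63 in SARB, larger shares than over all 730 genes. The median log2 fold change of the 9 genes was -0.05 in TQ and 0.37 in 5-FU, and it reached 0.57 in Combi and 0.46 in SARB. The corresponding medians of all 730 genes were -0.47, -0.27, -0.10 and -0.41, and those of the 514 genes were -0.30, -0.11, -0.01 and -0.23. With 9 genes, 1 call moves these shares widely, and the genes were chosen with earlier results of these data known. TMM moved the panel medians to -0.02, -0.07, -0.02 and -0.07, so fold changes lie higher under it, and its value is given where it changed a direction or a call.

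**Figure D1:**
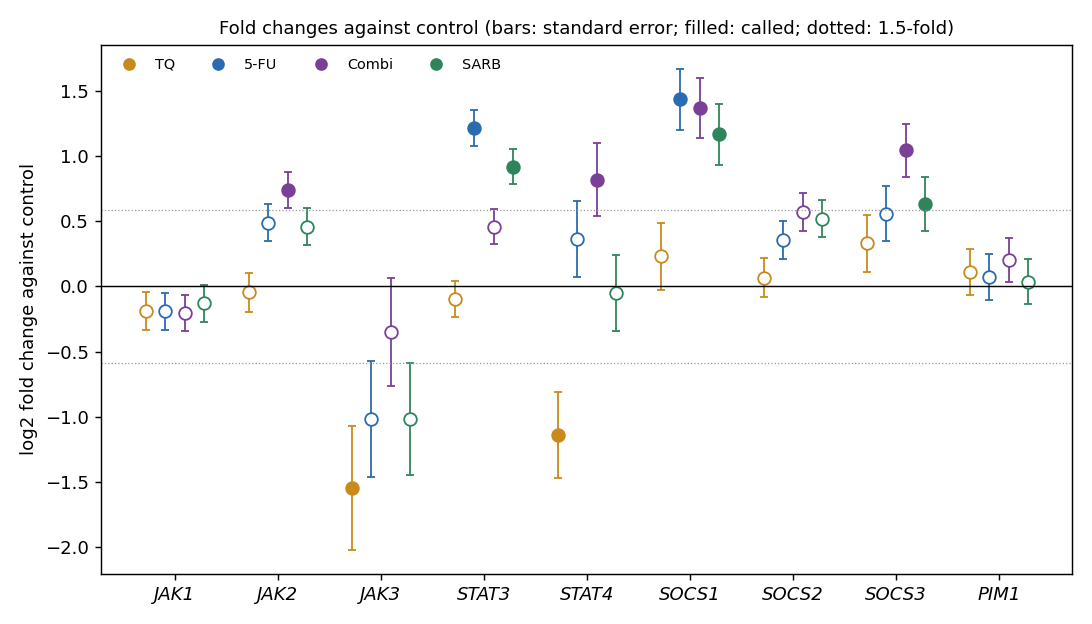
Log2 fold change against control (vertical axis) of the 9 genes (horizontal axis) in TQ, 5-FU, Combi and SARB, with bars for the standard error, filled points for called changes and dotted lines at a fold of 1.5. SOCS1 lies above 1 in 5-FU, Combi and SARB and at 0.23 in TQ, and JAK1 and PIM1 stay between -0.21 and 0.21 in all 4 treatments.

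The sequences just upstream of SOCS1 and STAT3 are shown because these were the genes with called rises in 5-FU and SARB that held under every processing tried. Each is the 250 bases before the transcription start in RefSeq (GRCh38.p14), read 5′ to 3′ on the strand of the gene, with capitals for motif matches. The SOCS1 stretch lies on the minus strand at chr16:11256205-11256454 and the STAT3 stretch on the minus strand at chr17:42388443-42388692.
SOCS1: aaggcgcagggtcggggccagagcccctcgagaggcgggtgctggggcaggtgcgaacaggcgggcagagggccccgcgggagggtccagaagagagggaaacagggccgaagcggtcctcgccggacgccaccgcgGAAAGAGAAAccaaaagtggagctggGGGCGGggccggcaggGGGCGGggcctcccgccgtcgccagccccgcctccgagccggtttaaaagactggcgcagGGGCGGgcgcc
STAT3: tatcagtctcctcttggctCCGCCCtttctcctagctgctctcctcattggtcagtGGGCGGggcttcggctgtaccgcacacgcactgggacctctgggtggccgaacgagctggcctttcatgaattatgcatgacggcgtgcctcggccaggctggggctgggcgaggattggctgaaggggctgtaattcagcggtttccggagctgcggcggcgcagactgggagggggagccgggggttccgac
The capitals mark the GC box GGGCGG, read on either strand, in both genes, and in SOCS1 also a GAAA repeat, GAAA followed after 2 bases by another GAAA, the spacing seen in interferon response elements and searched on both strands. SOCS1 held 1 such repeat, GAAAGAGAAA at bases 113 to 104 before the start, and 3 GC boxes. STAT3 held 2 GC boxes. Of 35116 promoters of the same length, 3.02% held the GAAA repeat and 42.6% held GGGCGG. The palindrome TTCNNNGAA, the core of a STAT binding element, was in 6.57% of promoters, and the p53 half-site was in 5.57%. Neither was found in these 250 bases of any of the 8 genes with an entry, and SOCS2 had none. GC content was 74% in SOCS1 and 64.4% in STAT3, against a median of 58% over all promoters, and the number of CpG dinucleotides was 27 and 18 against a median of 11. These matches describe the letters of the windows only.

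**Figure D2:**
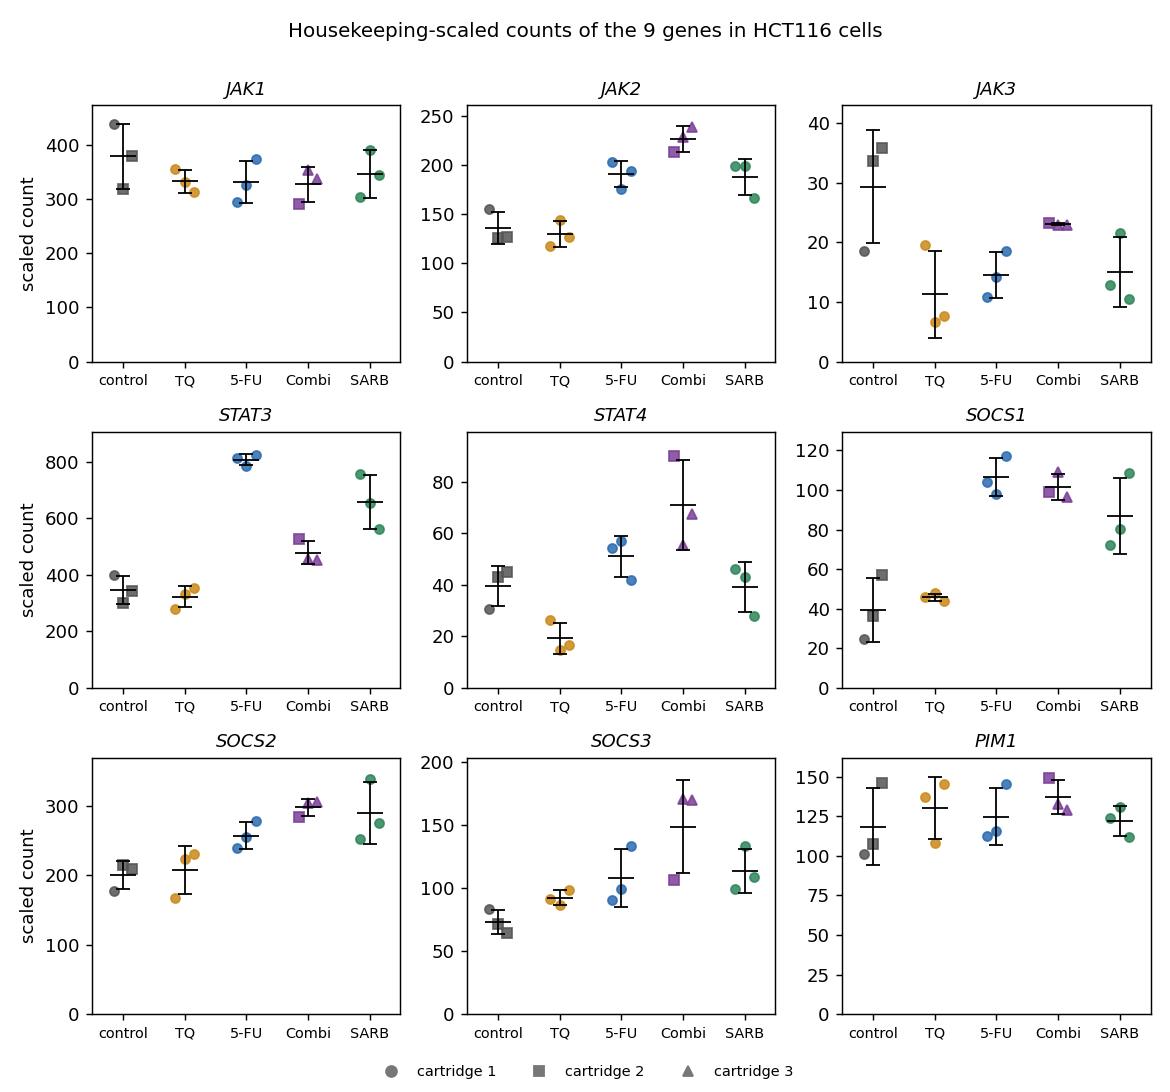
Scaled counts (vertical axes, from 0) of the 9 genes in the 15 samples, by group (horizontal axes), with symbols for the 3 cartridges and black lines for the mean ± SD of 3 samples. All 5-FU, Combi and SARB samples lie above all control samples for JAK2, STAT3, SOCS1, SOCS2 and SOCS3, and the 5 groups overlap for JAK1 and PIM1.

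Among the kinases, JAK1, which serves most interleukin and interferon receptors, gave no call. Its scaled counts were 438, 318 and 379 in control, 355, 330.5 and 312 in TQ, 295, 326 and 373 in 5-FU, 291, 353 and 336 in Combi, and 303, 391 and 345 in SARB. The groups overlapped throughout, and the log2 fold changes lay between -0.21 in Combi and -0.13 in SARB, with adjusted p from 0.29 to 0.458 in edgeR. The sign of this small shift depended on the scaling, since TMM gave 0.27 in TQ and 0.21 in SARB.

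JAK2 signals for erythropoietin, growth hormone and the interleukin 3 family. Its scaled counts were 155, 126 and 127 in control and 118, 144 and 127 in TQ. They were 203, 176 and 194 in 5-FU, 213, 229 and 239 in Combi, and 199, 199 and 167 in SARB. Every 5-FU, Combi and SARB sample was above every control sample, the Combi samples were above all others, and TQ overlapped with control. In Combi the log2 fold change was 0.74 (SE 0.14, edgeR adjusted p = 0.000255), and with cartridge as a block it was 0.75 (adjusted p = 0.00863). The differences in 5-FU (0.49, adjusted p = 0.0125) and SARB (0.46, adjusted p = 0.014) passed the p threshold but stayed under 1.5-fold. They reached it under TMM, at 0.68 and 0.80, and in 5-FU also without control replicate 1, at 0.59. With the cartridge block they were 0.30 (adjusted p = 0.37) and 0.27 (adjusted p = 0.366), past neither threshold. In TQ the value was -0.05, and it was 0.43 under TMM.

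JAK3, the kinase of the common gamma chain receptors of lymphocytes, was near the limit of detection. It exceeded background in 6 of 15 samples and in 0 of 3 controls, with raw counts of 5 to 49. Scaled counts were 18.4, 33.6 and 35.9 in control, 19.6, 6.58 and 7.58 in TQ, 10.9, 14.2 and 18.5 in 5-FU, 23.2, 23.0 and 22.9 in Combi, and 12.9, 21.6 and 10.50 in SARB. Control replicate 1, on the cartridge of the TQ samples, was the lowest control and overlapped with TQ, 5-FU and SARB. JAK3 was called lower in TQ, from control counts that were not above background, with a log2 fold change of -1.55 (SE 0.48, edgeR adjusted p = 0.0183). The call was lost under TMM (-1.10) and DESeq2 (-1.08), with the cartridge block (-0.88), with counts under 20 set to 20 (-0.35), and when control replicate 2 (-1.43) or 3 (-1.38) or TQ replicate 2 (-1.17) or 3 (-1.40) was left out. In 5-FU and SARB it was -1.02 in both, with adjusted p of 0.0932 and 0.0654, and these became calls without control replicate 1, at -1.26 in both, and in SARB also without SARB replicate 2, at -1.34.

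STAT3, the transcription factor of the interleukin 6 family, had scaled counts in separate ranges in 5-FU, SARB and Combi. Scaled counts were 399.7, 299.6 and 342 in control and 281, 333 and 355 in TQ. They were 812, 785 and 825 in 5-FU, 525, 457 and 452 in Combi, and 757, 654 and 563 in SARB. TQ overlapped with control, and above them Combi, SARB and 5-FU followed in this order without overlap between neighbours. Combi shared no cartridge with SARB or 5-FU. With cartridge as a block the log2 fold changes were 0.71 in Combi, 0.72 in SARB and 1.01 in 5-FU, so Combi and SARB were no longer apart. The group means were 347 ± 50.2 (SD, n = 3) in control, 323 ± 37.99 in TQ, 478 ± 40.9 in Combi, 658 ± 96.9 in SARB and 807 ± 20.4 in 5-FU. The log2 fold change was 1.22 in 5-FU (SE 0.14, edgeR adjusted p = 5.52e-07) and 0.92 in SARB (SE 0.14, adjusted p = 1.92e-05). Over all alternatives, each a call, it lay between 1.01 and 1.42 in 5-FU and between 0.72 and 1.26 in SARB. In Combi it was 0.46 (adjusted p = 0.0128), under 1.5-fold, and with the cartridge block 0.71, a call. In TQ it was -0.10, and 0.36 under TMM.

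STAT4 transmits interleukin 12 signals in T and natural killer cells, and it was weakly expressed here, with raw counts of 11 to 127. Scaled counts were 30.7, 43.0 and 44.8 in control, 26.1, 14.8 and 16.7 in TQ, 54.3, 56.8 and 42.0 in 5-FU, 89.9, 55.3 and 67.6 in Combi, and 46.3, 43.1 and 28.0 in SARB. All TQ samples were below all others, and the Combi samples were above all control samples. The log2 fold change was -1.14 in TQ (SE 0.33, edgeR adjusted p = 0.014) and 0.82 in Combi (SE 0.28, adjusted p = 0.0295). The TQ call was lost under TMM (-0.67) and DESeq2 (-0.63), with counts under 20 set to 20 (-0.59), with the cartridge block (-0.78), and without control replicate 3 (-1.05) or TQ replicate 2 (-0.92). The Combi call was lost with the cartridge block (1.03, adjusted p = 0.0683) and when control replicate 1 (0.67) or 2 (0.89) or Combi replicate 1 (0.63) or 3 (0.85) was left out. In 5-FU and SARB it was 0.37 and -0.05, with adjusted p of 0.368 and 0.895, and under TMM the SARB value was 0.30.

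SOCS1, an inhibitor that blocks the catalytic site of JAKs, had the largest called rise among the 9 genes. Scaled counts were 24.6, 36.3 and 56.8 in control and 45.7, 47.7 and 44.0 in TQ. They were 104, 98.1 and 117 in 5-FU, 99.0, 109 and 96.3 in Combi, and 72.0, 80.3 and 108.5 in SARB. Every sample of 5-FU, Combi and SARB lay above every control and TQ sample, while these 3 groups overlapped with each other. The controls had low counts, 16, 27 and 38 raw counts against a background of 12.5, 26.4 and 24.9. The size of the fold changes rests on these low control counts. The log2 fold change was 1.44 in 5-FU (SE 0.24, edgeR adjusted p = 7.14e-05), 1.37 in Combi (SE 0.23, adjusted p = 7.41e-05) and 1.17 in SARB (SE 0.23, adjusted p = 0.000462). The 3 calls held under every alternative, with ranges of 1.20 to 2.11, 1.10 to 1.83 and 0.94 to 1.85. Control replicate 1 had the lowest SOCS1 count of the 15 samples, and leaving it out gave 1.20, 1.14 and 0.94. Against that sample alone, on the cartridge it shared with them, the log2 ratio of means was 2.12 in 5-FU and 1.82 in SARB. In TQ the value was 0.23 (adjusted p = 0.478), and it was -0.0015 without control replicate 1.

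SOCS2, a regulator of growth hormone signals, lay above control in the same groups by less, with no call. Scaled counts were 177, 215 and 209 in control, 168, 224 and 230.4 in TQ, 239, 254 and 278 in 5-FU, 284, 304 and 306 in Combi, and 253, 339 and 276 in SARB. All samples of 5-FU, Combi and SARB were above all controls. The log2 fold change was 0.36 in 5-FU (adjusted p = 0.0791), 0.57 in Combi (adjusted p = 0.004) and 0.52 in SARB (adjusted p = 0.00785) in edgeR, all under 1.5-fold. Combi and SARB reached the fold under TMM, at 0.67 and 0.87. Combi also did so when control replicate 2 (0.63) or 3 (0.60) or Combi replicate 1 (0.60) was left out, and SARB without SARB replicate 1 (0.61) and with the cartridge block (0.70). In Combi the cartridge block gave 0.42 (adjusted p = 0.201), no longer past the p threshold. In TQ the value was 0.07.

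SOCS3 binds the shared receptor chain gp130 and is the usual brake on interleukin 6 signals. Scaled counts were 83.0, 71.2 and 64.2 in control, 91.4, 86.6 and 98.5 in TQ, 90.1, 99.3 and 133 in 5-FU, 106, 170.0 and 169.3 in Combi, and 99.4, 133 and 108.5 in SARB. Every treated sample was above every control sample, and it was the only one of the 9 genes for which this held in all 4 treatments. The log2 fold change was 1.05 in Combi (SE 0.20, edgeR adjusted p = 0.000349) and 0.63 in SARB (SE 0.21, adjusted p = 0.0206). In 5-FU it was 0.56 (adjusted p = 0.0558) and in TQ 0.33 (adjusted p = 0.234), and under TMM both became calls, at 0.74 and 0.80. The 5-FU value was also a call without control replicate 1 (0.66) or 5-FU replicate 1 (0.68). With the cartridge block both calls were lost, at 0.64 in Combi (adjusted p = 0.108) and 0.44 in SARB (adjusted p = 0.282). Combi replicate 1, the Combi sample that shared a cartridge with controls, was the lowest of its group. Leaving out control replicate 2 (0.62) or 3 (0.55) or SARB replicate 2 (0.52) also ended the SARB call.

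PIM1, the survival kinase induced by STATs, gave no call in any group. Scaled counts were 101.5, 107.5 and 146 in control, 137, 108 and 145.5 in TQ, 113, 116 and 146 in 5-FU, 149, 133 and 129 in Combi, and 124, 131 and 112 in SARB. All groups overlapped, and the log2 fold changes were 0.11, 0.07, 0.21 and 0.04 in TQ, 5-FU, Combi and SARB. Adjusted p was between 0.432 and 0.867 in edgeR, with 95% intervals that reached at most 0.56 in Combi. Of the alternatives, DESeq2 called PIM1 higher in TQ, at 0.62.

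Counted over the set, 5 of the 9 genes in 5-FU, 6 in Combi and 5 in SARB had all 3 treated samples above all 3 controls, and 0 had them all below. Over the panel the shares above were 16.3%, 19.3% and 13.2%, and those below 27.8%, 16.7% and 28.9%. In TQ 1 gene, SOCS3, was above without overlap and 1, STAT4, below, against 6.16% and 39.5% of the panel.

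**Figure D3:**
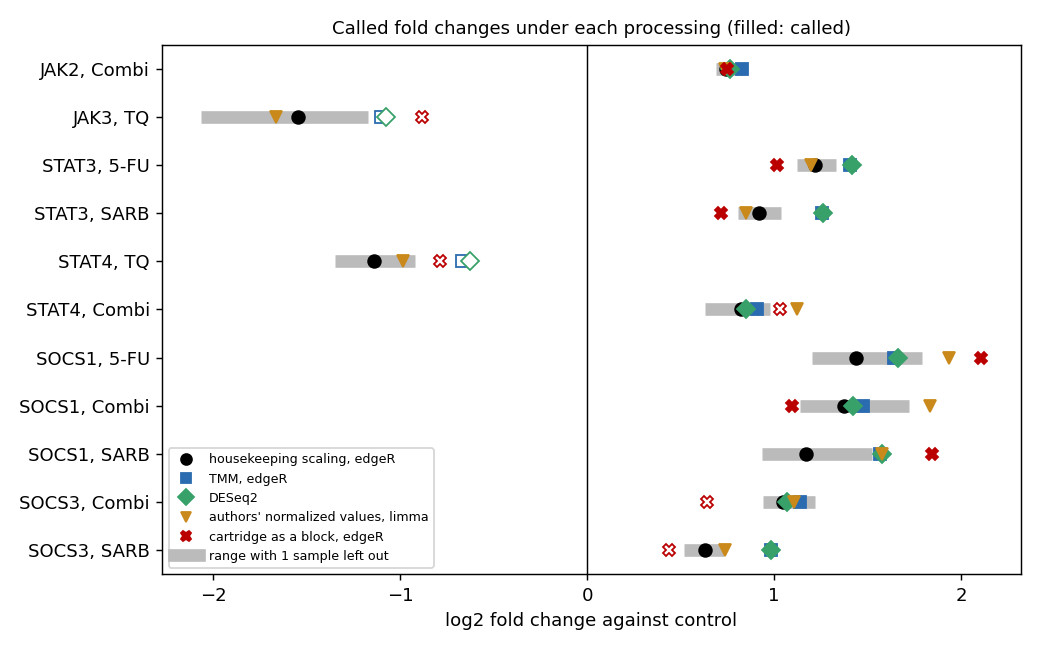
Log2 fold change against control (horizontal axis) of the 11 called changes under 5 ways of processing, with filled symbols for calls, open symbols where the call was lost and grey bars for the range when 1 sample was left out. The calls of JAK2 in Combi, STAT3 in 5-FU and SARB and SOCS1 in 5-FU, Combi and SARB are filled in all 5 ways, and those of JAK3 and STAT4 in TQ are filled in 2 of them.

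SARB and Combi were the pair of treatments given at the same concentration, 35 µM of the hybrid against 35 µM each of TQ and 5-FU. SARB joins derivatives of TQ and 5-FU through an ester, and the 2 groups also differ in the cartridges on which they ran. Of the 9 genes, 0 were called higher and 1 lower in SARB than in Combi, against 0.959% and 11.2% of the 730 genes. The gene was STAT4, with a log2 fold change of -0.87 (95% interval -1.42 to -0.32, adjusted p = 0.0278, edgeR). All SARB samples of STAT4 (28.0 to 46.3) were below all Combi samples (55.3 to 89.9). The call was lost under TMM (-0.61) and DESeq2 (-0.54), with limma on the authors' normalized values (-0.95), and without Combi replicate 1 (-0.68), Combi replicate 3 (-0.90) or SARB replicate 3 (-0.64). STAT3 was higher in all SARB samples than in all Combi samples, by 0.46 (95% interval 0.19 to 0.73, adjusted p = 0.018), which is under 1.5-fold. Under TMM and DESeq2 this difference was a call, at 0.72 and 0.79. For SOCS3 the difference was -0.41 (95% interval -0.79 to -0.04, adjusted p = 0.115), and it was called at -0.59 without Combi replicate 1. JAK2 differed by -0.28 (95% interval -0.55 to -0.01, adjusted p = 0.136), with no overlap between the groups. SOCS1 (-0.20, interval -0.61 to 0.20), SOCS2 (-0.05, interval -0.33 to 0.23), JAK1 (0.08, interval -0.21 to 0.36) and PIM1 (-0.17, interval -0.50 to 0.16) missed the p threshold, which does not show that the treatments act alike on them. JAK3 had the widest interval, -1.54 to 0.20 around -0.67, although no SARB sample reached the lowest Combi sample. In all, 1 gene of the 9 had every SARB sample above every Combi sample and 3 had every sample below, against 4.93% and 28.9% of the panel. No cartridge held both treatments. With the cartridge block, in which they are linked through the controls, STAT3 differed by 0.0034, STAT4 by -0.72 and SOCS1 by 0.75, each at an adjusted p of 0.997.

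**Figure D4:**
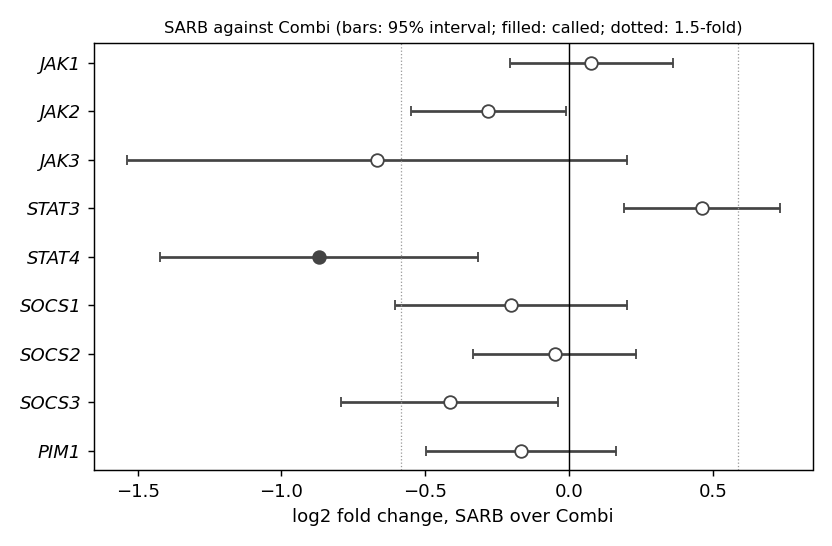
Log2 fold change of SARB over Combi (horizontal axis) of the 9 genes (vertical axis), with bars for the 95% interval of the quasi-likelihood fit, a filled point for the called change and dotted lines at a fold of 1.5. STAT4 at -0.87 is the filled point, and the interval of STAT3, 0.19 to 0.73, lies above 0.

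TQ at 40 µM and 5-FU at 15 µM were given at concentrations that differ from those in Combi and SARB, so their values are set side by side only. STAT3 stood at 1.22 in 5-FU, -0.10 in TQ, 0.46 in Combi and 0.92 in SARB on the log2 scale against control. SOCS1 stood at 1.44, 0.23, 1.37 and 1.17 in the same order.

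The other genes of the pathway were taken from a list of 68 genes on the panel, among them 25 ligands, 23 receptors, 11 target genes, 6 adaptors, phosphatases and inhibitors, and 2 coactivators. Of these, 24 were above background in all 15 samples and 16 in none. Calls in TQ were 2 higher and 13 lower, against 3.42% and 21.6% of the panel. In 5-FU 7 were higher and 2 lower, against 10.1% and 10.1%. In Combi 6 were higher and 0 lower, against 13.6% and 6.58%. In SARB 5 were higher and 11 lower, against 8.63% and 20%. Each of these shares of the 68 genes was near or below that of the panel. Many of the lower calls fell on genes at the edge of detection, as 4 of the 13 in TQ and 4 of the 11 in SARB were on genes above background in all samples. The median log2 fold change of the 68 genes was -0.87, -0.44, -0.30 and -0.69 in TQ, 5-FU, Combi and SARB, below the panel medians given above. The negative probes averaged 6.75, 12 and 12.25 raw counts in control and 3.125, 5.75 and 4.25 in TQ. The housekeeping factors of these samples were 0.65, 0.74 and 0.67 in control and 0.46, 1.82 and 0.66 in TQ. No background was taken off in this fit, and its part in these medians was not tested.

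The naming rule took 12 of the 27 called genes. Of them 10 were cytokine ligands or receptors, among them CSF2, IFNA2, IL3, IL7, TSLP, CRLF2, IL3RA, IL5RA and IL7R. All 10 were called lower in TQ or SARB, and each was above background in at most 9 of 15 samples. Their called log2 fold changes ran from -2.24 for CSF2 in TQ to -1.17 for IL3 in SARB. With counts under 20 set to 20 all of these calls were lost, at -0.35 to -0.15 in TQ and -1.01 for IL3 and -0.87 for each of CRLF2, IL5RA and TSLP in SARB. For CRLF2, IL5RA and TSLP every control and SARB count was under 20, so that -0.87 holds the scaling factors of the samples and no difference in counts.

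The remaining pair were target genes with high counts. CDKN1A, the cell cycle inhibitor p21, had 892 ± 269.9 scaled counts (SD, n = 3) in control and 462 ± 18.6 in TQ. It reached 4037 ± 845 in 5-FU, 5725 ± 473 in Combi and 4676 ± 842 in SARB. Its log2 fold change was -0.95 in TQ against 2.18 in 5-FU, 2.68 in Combi and 2.39 in SARB, all of them calls in edgeR. The TQ call was lost under TMM (-0.47), in DESeq2 (-0.43) and with the cartridge block (-0.56). FOS, an immediate early transcription factor, had 112 ± 17.1 in control, and it stood at 730.03 ± 64.2 in TQ and 549 ± 129.7 in Combi but at 86.8 ± 13.5 in 5-FU and 75.2 ± 16.1 in SARB. FOS rose by 2.70 in TQ and 2.29 in Combi on the log2 scale, and its fall by 0.61 in SARB was lost under TMM (-0.26), with the cartridge block (-0.70), and without control replicate 1 or 2 or SARB replicate 1 or 3, at -0.58 to -0.49. Between SARB and Combi 0 of the 68 genes were called higher and 5 lower, a share below the 11.2% of the panel called lower. They were FOS (-2.90), TSLP (-1.52), LEPR (-1.10), IL6R (-0.66) and CCND3 (-0.59), the last 3 named after their values were seen. Of the 15 fits without 1 sample, 9 ended the call of TSLP, 12 that of IL6R and 5 that of CCND3. Without SARB replicate 3 all 3 of these calls were lost, at -1.48, -0.34 and -0.67. Limma made none of these 3 calls, at -1.70, -0.71 and -0.54. With the cartridge block 1 of the 5 calls was left, that of FOS.

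Further pathway genes are named after their values were seen. CLCF1 and IL12A, ligands of the interleukin 6 and 12 families, were called higher in 5-FU (1.46 and 0.87), Combi (1.46 and 1.03) and SARB (1.36 and 0.84), although CLCF1 did not exceed background in any control. Without control replicate 1 or 5-FU replicate 3 the IL12A call in 5-FU was lost, at 0.74 and 0.72. LIF, also of the interleukin 6 family, was called higher in 5-FU (0.79), and the receptor IL6R in Combi (0.99), both lost with the cartridge block (0.41 and 0.88), and LIF also without control replicate 2 (0.58). LEPR, the leptin receptor, was called lower in TQ (-0.82), 5-FU (-0.76) and SARB (-1.02), and with the cartridge block these were -0.44, -0.37 and -0.64, with no call. Under TMM the TQ and 5-FU values were -0.34 and -0.56, also with no call, and without TQ replicate 2 the TQ value was -0.63. Of STAT3 targets, the survival gene BCL2L1 was called higher in 5-FU (0.88), CCND1 in TQ (0.77), 5-FU (0.81) and SARB (0.95), and CCND3 in 5-FU (0.86), Combi (1.39) and SARB (0.80), while VEGFA was called lower in 5-FU (-0.61) and SARB (-0.63). With the cartridge block CCND1 stood at 0.35, 0.38 and 0.53 and CCND3 in Combi at 0.73, with no call. The VEGFA calls were lost under TMM, at -0.42 and -0.30, and without 5-FU replicate 2 (-0.56) or SARB replicate 3 (-0.53). PTPN11, the phosphatase SHP2 that acts at cytokine receptors, was called lower in SARB (-0.79), and under TMM this was -0.45 with no call.

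**Figure D5:**
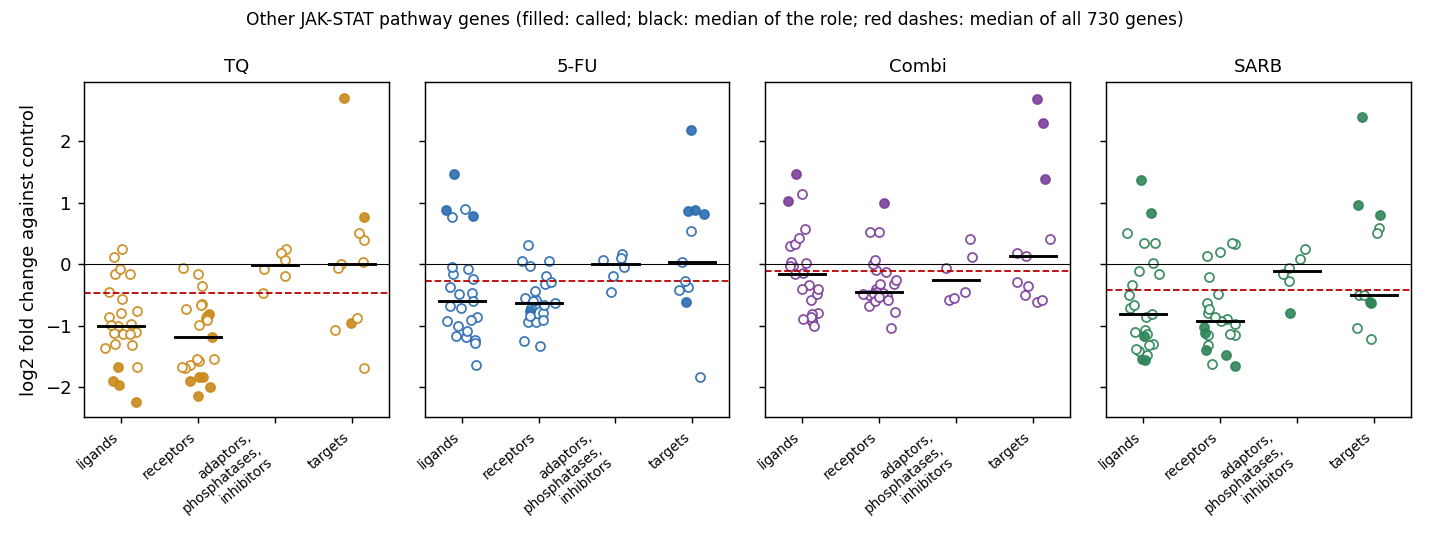
Log2 fold change against control (vertical axis) of the ligands, receptors, adaptors, phosphatases, inhibitors and target genes of the pathway, by role on the horizontal axis, in the 4 treatments, with filled points for called genes, black bars for the median of each role and a red dashed line for the median of all 730 genes. Ligands and receptors lie lowest in TQ, with medians of -1.01 and -1.18, and the highest points are target genes, FOS in TQ at 2.70 and CDKN1A in Combi at 2.68. Most ligands and receptors had low counts, and no background was taken off.

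For the 3 genes with the largest called changes, excluding JAK3 for its mean raw count under 20, the most similar genes over the 15 samples were ranked by Pearson's r of log2(scaled count + 1). The points share libraries, cartridges and groups, so r is given as a description. SOCS1 was most like SHC1 (r = 0.925), MDM2 (0.920) and FAS (0.915). STAT3 was most like BCL2L1 (0.949), DDB2 (0.947) and GNA11 (0.943). STAT4 was most like WNT7A (0.906), DUSP4 (0.884) and NOTCH3 (0.882).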

How the data were processed

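RNA of HCT116 cells was measured with the NanoString PanCancer Pathways panel in 15 samples of 5 groups. The authors deposited raw counts per probe, normalized values (a signal per gene, scaled with nSolver Analysis Software 3.0 to the geometric mean of the housekeeping genes) and a table of their own fold changes and p-values, which was not used. Rebuilding the deposited signal from the counts, with background taken off, matched 100% of values within 1% in every sample. The factor of each sample was taken from the deposited values themselves, so this match does not test the housekeeping scaling. Raw counts of 730 genes were tested with edgeR 4.0.16 in R 4.3.3, 5 groups in 1 quasi-likelihood fit, with library sizes set by the 40 housekeeping genes. The script was tested on simulated data. Alternatives were TMM, DESeq2 1.42.0, a mean raw count of at least 20, counts under 20 set to 20, limma 3.58.1 on log2 of the deposited signal plus 1, cartridge or replicate number as a block, unadjusted p, and 15 fits without 1 sample.

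Named were the 9 genes, at most 12 other pathway genes by the size of their called change, and 3 genes most like each of 3 members, and pathway genes outside this rule are marked in the text. Not every gene named by the rule is reported here. The 9 genes and the lists were chosen with earlier results of these data known. Symbols follow the deposited files, and all 9 transcripts carry the same symbol in RefSeq. Upstream sequences came from RefSeq (GRCh38.p14) for 8 of the 9 genes, and of several starts the most upstream was searched. Intervals are at the 95% level. No replicate pair agreed within counting noise.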

Additional observations from a re-analysis of the deposited data

How the results depend on the processing

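Of the 45 log2 fold changes of the 9 genes, direction and call were kept by 45 with the replicate number as a block, by all 40 that could be tested with a mean raw count of at least 20, by 43 with counts under 20 set to 20, by 43 with unadjusted p, by 41 with limma on the authors' normalized values, by 31 with the cartridge block, by 27 with TMM and by 25 with DESeq2. The calls of JAK2 in Combi, of STAT3 in 5-FU and SARB and of SOCS1 in 5-FU, Combi and SARB were made under all of these and in all 15 fits without 1 sample. The cause of the changes was not tested, except that the mean count filter left out JAK3.

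The number of the 9 genes called against control was 2 in TQ, with 1 under TMM and with the mean count filter and 0 with counts under 20 set to 20 and with the cartridge block. Under TMM the 1 call in TQ was SOCS3, called higher (0.80). In DESeq2 the 2 calls in TQ were SOCS3 (0.83) and PIM1 (0.62), both called higher. Neither TMM nor DESeq2 kept the lower calls of JAK3 and STAT4. Over the 730 genes the higher calls in 5-FU went from 74 to 104 under TMM and 101 in DESeq2. In TQ they went from 25 to 79 and 85, and in SARB from 63 to 120 and 116. The number of the 9 genes called was 2 in 5-FU, with 4 under TMM and DESeq2. In SARB it was 3, with 5 under both. Between SARB and Combi it was 1, with 0 in limma and with the cartridge block. Under TMM and DESeq2 the 1 call was a different gene, STAT3, called higher (0.72 and 0.79), and the lower call of STAT4 was lost. Among the 68 other pathway genes, the 15 called in TQ became 7 under TMM, 7 in DESeq2, 6 with the mean count filter, 4 with counts under 20 set to 20, 6 in limma, 1 with the cartridge block and 26 with unadjusted p. The 9 called in 5-FU became 15 with unadjusted p. The 16 called in SARB became 10 in DESeq2, 9 with the mean count filter, 9 with counts under 20 set to 20 and 6 with the cartridge block. The 5 called between SARB and Combi became 2 in limma, 1 with the cartridge block and 9 with unadjusted p.

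With 1 sample left out, the number of the 9 genes called was 0 (without control replicate 3 or TQ replicate 2) to 2 in TQ, 2 to 5 (without control replicate 1) in 5-FU, 3 to 5 in Combi, 2 to 4 in SARB and 0 to 1 between SARB and Combi (0 without Combi replicate 3 or SARB replicate 3). For the other pathway genes the range was 3 (without TQ replicate 2) to 24 (without SARB replicate 3) in TQ, 6 to 9 in Combi, 8 to 12 in 5-FU, 10 to 29 (without SARB replicate 2) in SARB and 2 to 10 (without SARB replicate 2) between SARB and Combi.

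Signs that turned belonged to values that were not calls, except for CRLF2 and CCND3. With TMM these were JAK1 (0.27), JAK2 (0.43) and STAT3 (0.36) in TQ, JAK1 (0.21) and STAT4 (0.30) in SARB, and SOCS1 (0.089), SOCS2 (0.20) and PIM1 (0.10) between SARB and Combi. With DESeq2 they were JAK1 (0.30), JAK2 (0.46) and STAT3 (0.40) in TQ, JAK1 (0.22) and STAT4 (0.31) in SARB, and JAK2 (0.046), SOCS1 (0.16), SOCS2 (0.27) and PIM1 (0.17) between SARB and Combi. With the cartridge block they were CRLF2 in TQ (0.044) and SARB (0.22), STAT4 in SARB (0.31), and JAK1 (-0.082), JAK3 (0.22), SOCS1 (0.75), SOCS2 (0.28), PIM1 (0.017) and CCND3 (0.23) between SARB and Combi. With limma on the authors' normalized values they were STAT4 in SARB (0.17) and SOCS2 in TQ (-0.0056). With 1 sample left out the sign turned within the ranges of JAK2 (-0.15 to 0.059), STAT3 (-0.19 to 0.018), SOCS1 (-0.0015 to 0.59) and SOCS2 (-0.013 to 0.18) in TQ, PIM1 in 5-FU (-0.050 to 0.25), STAT4 (-0.20 to 0.18) and PIM1 (-0.059 to 0.22) in SARB, and JAK1 (-0.013 to 0.16) and SOCS2 (-0.17 to 0.034) between SARB and Combi.

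The replicate numbers share only a number. Of 30 pairs of same-numbered samples from different groups, 9 had deviations from the group means that correlated above 0.1 (r from -0.67 to 0.39), and 3 of 15 samples were closest to their own number. As a block the number left the calls of the 9 genes at 2, 2, 4 and 3 against control and 1 between SARB and Combi, and moved the other pathway genes between SARB and Combi from 5 to 2. Low counts limit JAK3, the control level of SOCS1 and most ligands and receptors, and each group had 3 samples. Changes under 1.5-fold depended on the scaling. So did some larger ones, since the TQ calls of JAK3, STAT4 and CDKN1A were lost under TMM.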
